A study of Mus musculus with 4 samples.

Results

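The genes that write, maintain, remove and read DNA methylation were followed in RNA-seq of cultured mouse astrocytes. They are 9 genes chosen by name (Tet1, Tet2, Tet3, Dnmt1, Dnmt3a, Dnmt3b, Uhrf1, Tdg and Mbd1) of the 25393 genes listed in the deposited table, and each name matched 1 row. The cells came from cortex and hippocampus of C57BL/6 pups at postnatal day 1, untreated, with tissue of 2 mice in each isolation. There were 2 libraries of wild type (WT) cells and 2 of cells labelled tet1-/-, from mice the study describes as constitutive Tet1 knockouts (KO). The targeted exons of Tet1 are not given in the sources used here. After about 7 days of culture and shaking at 260 rpm, the cells were kept for a further 24 h and collected as a bulk culture. In such bulk RNA, fewer cells of a type and less RNA per cell cannot be told apart. No source states that the libraries of a group came from separate litters, so p-values measure only the spread between these libraries.

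DNA methylation is placed on cytosines that precede guanines (CpG) by the DNA methyltransferases. Dnmt3a and Dnmt3b act on unmethylated DNA, while Dnmt1, brought to newly replicated DNA by Uhrf1, copies the parental pattern onto the daughter strand. Tet1, Tet2 and Tet3 oxidize 5-methylcytosine to 5-hydroxymethylcytosine (5hmC) and beyond, and the glycosylase Tdg cuts out the most oxidized forms so that base excision repair can restore cytosine. Mbd1 belongs to the methyl-CpG binding domain family and binds methylated DNA and recruits repressors of transcription. In the brain 5hmC is abundant in neurons, and Dnmt1 and Uhrf1 are typically high in dividing progenitors.

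Values are normalized counts, reads per gene divided by 1 size factor per library, and the reads on genes ranged from 18749610 to 22673555 per library. A floor of 3 reads equals 2.70 to 3.21 normalized counts, and all 9 genes lay above it in every library, Dnmt3b lowest with 26 to 50 reads. Xist, the RNA of the inactive X chromosome, was at 8.54 and 0.920 in WT and at 2896 and 13367 in the KO-labelled libraries, and 4 Y-linked genes summed to 3765 and 1909 against 0 and 830, so sex and label cannot be told apart. The 10 astrocyte markers summed to 183415 and 178648 in WT and to 290379 and 52356 in the KO-labelled libraries. Of these 10, 0 were higher and 2 lower (Slc1a2 and Sox9) at an unadjusted p under 0.05, and the median log2 difference was -0.73. Gfap alone was 17.6-fold higher in labelled KO replicate 1 than in replicate 2. Microglia markers summed to 2821 and 5106 in WT and to 1107 and 675 in the KO-labelled libraries, with 12 of 16 lower at an unadjusted p under 0.05. In the same libraries 2 of 6 neuron markers tested were higher and 0 were lower, 1 of 8 oligodendrocyte lineage markers was lower, and 2 of 7 vascular and fibroblast markers tested were lower. At the same threshold, 4.54% of all genes tested were higher and 9.18% lower. The neuron marker Snap25 was listed but too low to test.

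Tet1, the targeted gene, was not lower in the KO-labelled libraries. It had 266 and 121 normalized counts in WT, against 173 and 463 in the KO-labelled libraries, and the groups overlapped because labelled KO replicate 1 lay between the WT libraries. Each direction given here therefore follows the labels, and these libraries are called KO-labelled or labelled KO throughout. Reads were counted over the whole gene and the targeted exons are not given, so this level does not settle whether Tet1 was deleted. The cause of the Tet1 level was not tested.

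Across the 9 genes, Mbd1 was far lower, Tdg and Uhrf1 were higher, Dnmt1, Dnmt3a and Tet3 were somewhat higher, Dnmt3b was lower, and Tet1 and Tet2 overlapped between the labels. In limma, 0 of the 22094 genes tested reached an adjusted p under 0.05, so none of the 9 did. At an unadjusted p under 0.05, 3 of the 9 passed (Mbd1, Tdg and Uhrf1), against 13.7% of all genes tested. Without WT replicate 1 only Mbd1 passed. By direction, 2 were higher, against 4.54% of all genes, and 1 was lower, against 9.18%. DESeq2 on the recovered reads called Mbd1 and Tdg at an adjusted p under 0.05, where it called 4.92% of all genes, while edgeR called 0 genes, with 2733 at an unadjusted p under 0.05 (12.4%). In 7 of the 9 genes both libraries labelled KO lay on one side of both WT libraries, which 47.9% of all genes tested also did. Of these, 5 were higher, against 22.5%, and 2 lower, against 25.4%. With 2 libraries a group, the lowest two-sided p that an exact permutation test can reach is 0.333.

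**Figure D1:**
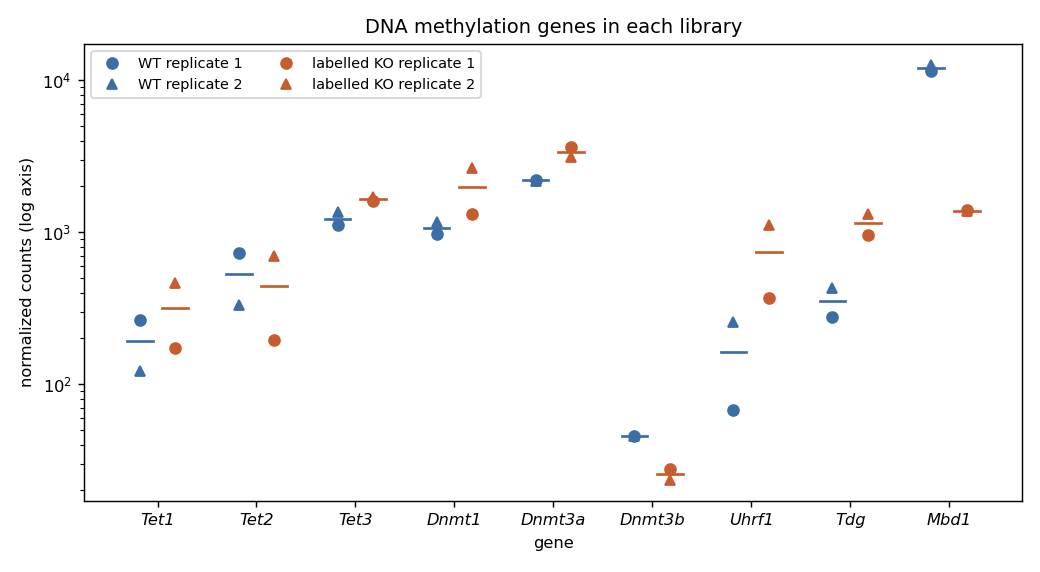
Normalized counts (log axis) of the 9 genes in each library, with WT in blue, labelled KO in orange, circles for replicate 1, triangles for replicate 2 and bars for group means. Mbd1 lies between 11549 and 12644 in WT and between 1375 and 1401 in the KO-labelled libraries, while the points of Tet1 and Tet2 overlap.

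Mbd1 (ENSMUSG00000024561, chr18:74267605-74282732 of GRCm38, plus strand, overlapping no other annotated gene) showed the largest difference of the 9. It had 11549 and 12644 normalized counts in WT, against 1401 and 1375 in the KO-labelled libraries. The libraries of each label lay close together, and the means, 12096 ± 774 (SD, n = 2) and 1388 ± 18.8 (SD, n = 2), differed 8.72-fold. The log2 difference was -3.12 (standard error 0.27, 95% interval -3.81 to -2.44), with an adjusted p of 0.0777 from limma, the lowest value in the table and shared by 30 genes. Ordered by unadjusted p, Mbd1 took rank 10 of the 22094. With DESeq2 the log2 difference was -3.12 and the adjusted p 2.65e-12. With edgeR they were -3.16 and 0.0843. With any 1 library left out, the log2 difference stayed between -3.19 and -3.06.

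Per length, Mbd1 was the most abundant of the 9 genes in WT. Its level was 89.5 ± 3.11 FPKM (SD, n = 2) in WT, against 9.92 ± 0.518 (SD, n = 2) in the KO-labelled libraries. Of the 16 microglia markers, 15 were lower without overlap, against 25.4% of all genes tested, with a median log2 difference of -3.25. P2ry12 was listed at 0 in labelled KO replicate 1. Per WT library, Mbd1 was at 87.3 and 91.7 FPKM and the 16 markers together at 82.9 and 144 FPKM. The part of other cell types in the Mbd1 difference was not tested.

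Mbd2 to Mbd6 did not share the size of this difference. Mbd3, a subunit of the NuRD repressor complex that scarcely binds methylated DNA, was higher, with 1911 and 2154 normalized counts in WT, against 3893 and 3694 in the KO-labelled libraries (log2 difference 0.90, standard error 0.27, adjusted p = 0.283 from limma). Per length, Mbd1 was at 1.82 and 1.76 times the level of Mbd3 in WT and at 0.108 and 0.112 times in the KO-labelled libraries. Mbd4, a glycosylase that removes thymine and uracil opposite guanine at CpG sites, was lower in both libraries labelled KO. It had 468 and 485 normalized counts in WT, against 150 and 156 in the KO-labelled libraries, a log2 difference of -1.63 (standard error 0.34, adjusted p = 0.183 from limma and 0.00785 from DESeq2). Mbd2, which binds methylated CpG within NuRD, overlapped between the groups (1869 and 1543 against 1749 and 1126, 95% interval of the log2 difference -1.13 to 0.58). Mbd5 and Mbd6 had log2 differences of -0.07 and -0.41, neither past an unadjusted p of 0.05.

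**Figure D2:**
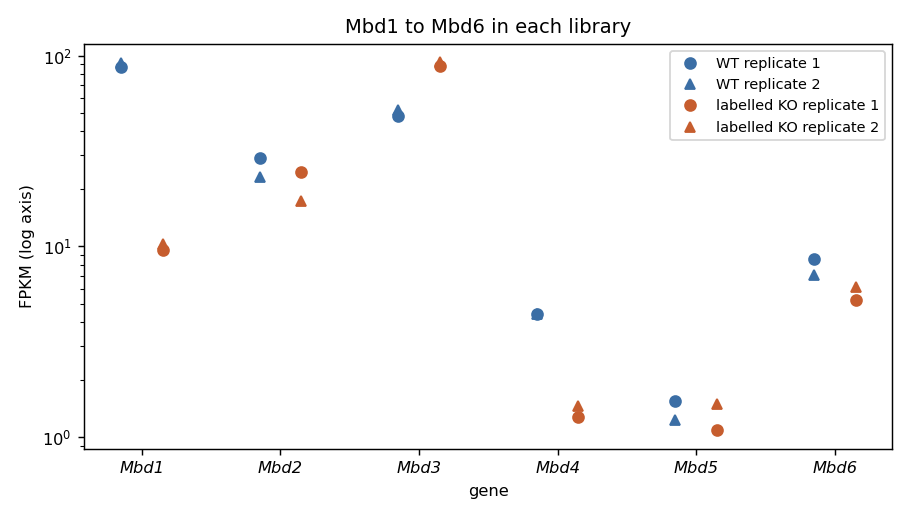
FPKM (log axis) of Mbd1 to Mbd6 in each library, WT in blue and labelled KO in orange, circles for replicate 1 and triangles for replicate 2. Mbd1 moves from 89.5 FPKM on average in WT to 9.92 in the KO-labelled libraries, Mbd3 from 50.03 to 90.2 and Mbd4 from 4.42 to 1.37.

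Uhrf1 and Dnmt1, the pair that maintains methylation through DNA replication, were both higher in the KO-labelled libraries without overlap. A word bound by E2F factors, which switch on genes of the replicating cell, was looked for upstream of the start sites of all members because both genes lay higher. The words were TTTGGCGC, TTTGCCGC, TTTCGCGC and TTTCCCGC, on both strands, in the 250 bases before each RefSeq start site (GRCm38.p6). Of 27025 genes with such windows, 583 (2.16%) held at least 1 of the words. Windows were at hand for 8 of the 9 genes, all but Mbd1, and 2 of these genes held a word, Uhrf1 and Dnmt1. All 4 words contain CpG, and the windows differ in CpG. The median was 6 over all windows, against 19 for the members and 19 for the S phase list. The 2 windows with a word held 30 (Uhrf1) and 26 (Dnmt1). The share of 2.16% is thus not one among windows equally rich in CpG. Nor is it one among genes with equally many windows. Uhrf1 had 2 and Dnmt1 had 3, against 32851 windows for the 27025 genes. The stretches are shown with the word in capitals, each 5′ to 3′ along the gene. That of Uhrf1 is the whole window (chr17:56304063-56304312, plus strand) before the second of its 2 start sites, with the word 185 bases before the start. That of Dnmt1 is 30 bases (chr9:20952824-20952853, minus strand) before the third of its 3 start sites, within an exon of another Dnmt1 transcript, with the word 219 bases before the start and on the other strand.
Uhrf1: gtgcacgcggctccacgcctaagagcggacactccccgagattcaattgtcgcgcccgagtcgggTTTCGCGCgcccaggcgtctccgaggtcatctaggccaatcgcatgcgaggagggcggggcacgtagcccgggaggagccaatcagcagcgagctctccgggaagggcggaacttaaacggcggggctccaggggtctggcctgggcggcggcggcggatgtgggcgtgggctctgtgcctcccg
Dnmt1: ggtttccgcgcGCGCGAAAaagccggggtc
Both hold the same word, TTTCGCGC, and of the 15 genes of the S phase list described below that had a window, 5 held 1 of the 4 words. A match describes the letters only and shows no binding.

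Uhrf1 (ENSMUSG00000001228, chr17:56303321-56323486, plus strand, no overlapping gene) recognises hemimethylated DNA behind the replication fork. It had 67.2 and 258 normalized counts in WT, against 368 and 1114 in the KO-labelled libraries. Each KO-labelled library was above both WT libraries, but libraries of 1 label differed 3.84-fold in WT and 3.03-fold in the others, so the closest pair of labels differed by only 0.51 on the log2 scale and the widest by 4.03. The means were 163 ± 135 (SD, n = 2) and 741 ± 527 (SD, n = 2), with a log2 difference of 2.27 (standard error 0.83, adjusted p = 0.345 from limma and 0.0877 from DESeq2). With any 1 library left out its unadjusted p was above 0.05, at log2 differences from 1.31 (without WT replicate 1) to 3.23 (without WT replicate 2), and without a variance trend it was 0.0703.

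Dnmt1 (ENSMUSG00000004099, chr9:20907209-20959888, minus strand, overlapping 1 microRNA gene on its own strand) had 974 and 1166 normalized counts in WT, against 1324 and 2642 in the KO-labelled libraries. Labelled KO replicate 2 was well above the other 3 libraries, which lay close together. The means were 1070 ± 136 (SD, n = 2) and 1983 ± 932 (SD, n = 2), and the log2 difference of 0.81 (standard error 0.41, 95% interval -0.23 to 1.85) had an adjusted p of 0.453 from limma. Without labelled KO replicate 2 it was 0.31, and without labelled KO replicate 1 it was 1.31. Per length, Dnmt1 exceeded Uhrf1 by 8.37-fold in WT replicate 1, 2.61-fold in WT replicate 2, and 2.08-fold and 1.37-fold in the KO-labelled libraries.

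Genes of DNA replication and cell division moved with this pair. Of the 18 genes of an S phase and proliferation list, 11 were higher at an unadjusted p under 0.05 and 0 lower, against 4.54% and 9.18% of all genes tested, with a median log2 difference of 1.24, against -0.07 over all genes tested. Their summed level was 3833 and 7262 normalized counts in WT, against 10494 and 17869 in the KO-labelled libraries, so WT replicate 1 was lowest and labelled KO replicate 2 highest, the order also seen for Uhrf1 and Dnmt1. Pcna, the sliding clamp of the replication fork, had 816 and 1600 normalized counts in WT, against 2181 and 2936 in the KO-labelled libraries. Rrm2, which supplies deoxynucleotides, was 4.76-fold higher on average (log2 difference 2.32, standard error 0.55, adjusted p = 0.218 from limma), and Mcm7, a subunit of the replicative helicase, had a log2 difference of 0.69 with an interval from -0.31 to 1.69. With any 1 library left out, fewer of the 18 passed, and the fewest did without labelled KO replicate 2. The count over all genes tested did not always fall with them. It rose without labelled KO replicate 1 and stayed nearly the same without labelled KO replicate 2. The part of proliferation in the values of Uhrf1 and Dnmt1 was not tested.

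Likeness between genes was measured as the root mean square difference of log2(normalized count + 1) over the 4 libraries, each gene centred on its own mean, among the 126 other genes of all lists that could be tested. The genes most like Dnmt1 were Mcm4 (0.18), Mcm3 (0.18) and Tyms (0.21), all of the S phase list. Those most like Uhrf1 were Cdh5 (0.25), an endothelial marker with few reads here, Top2a (0.30) and Rrm2 (0.36). With 4 libraries, such likeness is a description only.

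**Figure D3:**
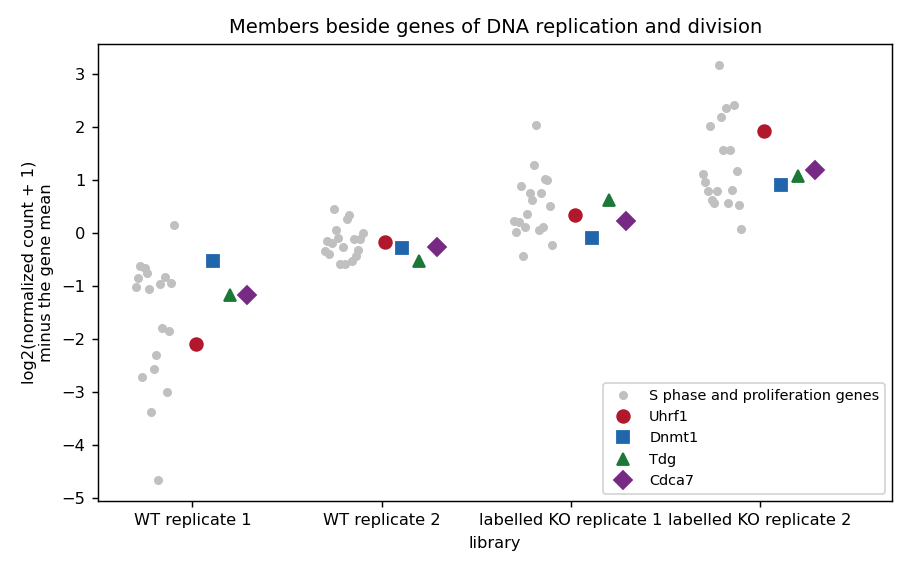
Level of Uhrf1, Dnmt1, Tdg and Cdca7 (coloured) and of the 18 S phase and proliferation genes (grey) in each library, as log2(normalized count + 1) minus the mean of the gene over the 4 libraries. WT replicate 1 holds the lowest and labelled KO replicate 2 the highest value of each coloured gene.

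Among the partners of maintenance, Cdca7, which targets the remodeller Hells to chromatin, had 101 and 190 normalized counts in WT, against 268 and 524 in the KO-labelled libraries, a log2 difference of 1.42 (standard error 0.53, adjusted p = 0.352 from limma). Uhrf2, the close relative of Uhrf1, was slightly lower, with 1307 and 1222 against 1159 and 983 and an interval of the log2 difference from -0.96 to 0.47. Of the 8 maintenance partners, 1 was higher at an unadjusted p under 0.05 and 7 did not pass, against 4.54% higher of all genes tested.

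Dnmt3a (ENSMUSG00000020661, chr12:3806007-3914443, plus strand) was higher and Dnmt3b (ENSMUSG00000027478, chr2:153649450-153687730, plus strand) lower in the KO-labelled libraries, each without overlap and neither past the test. Each overlaps an annotated antisense gene, whose reads cannot be told apart where counting ignored strand, which the sources used here do not state. Dnmt3a had 2208 and 2174 normalized counts in WT, against 3613 and 3113 in the KO-labelled libraries, a 1.54-fold difference of the means. Its log2 difference was 0.61 (standard error 0.27, 95% interval -0.08 to 1.30, adjusted p = 0.409 from limma). Dnmt3b had 45.9 and 46.0 normalized counts in WT, against 27.8 and 23.4 in the KO-labelled libraries, with a log2 difference of -0.82 (standard error 0.56, 95% interval -2.22 to 0.58, adjusted p = 0.564 from limma). Under quantile normalization the log2 difference of Dnmt3b was -0.27.

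Per length, Dnmt3a exceeded Dnmt3b by 14.8-fold and 14.5-fold in WT and by 39.8-fold and 40.8-fold in the KO-labelled libraries. The ratio thus differed between the labels by far more than between libraries of 1 label. It rests on 26 to 50 reads of Dnmt3b per library and was not tested. Summed over the 3 DNA methyltransferases, FPKM was 13.7 and 14.3 in WT and 18.1 and 27.2 in the KO-labelled libraries. Dnmt1 and Dnmt3a shared nearly all of it, with 44.6 to 65.1% for Dnmt1 and 34.0 to 54.0% for Dnmt3a, while Dnmt3b made up 0.835 to 3.28%. The catalytically inactive cofactor Dnmt3l was at 5.33 and 9.20 normalized counts in WT and listed at 0 in both libraries labelled KO. Its WT mean, on 5 and 10 reads, was 2.46-fold the mean floor of 3 reads in the KO-labelled libraries. The genes most like Dnmt3a over the 4 libraries were Mbd3 (0.17), Tet3 (0.18) and Parp1 (0.20), and those most like Dnmt3b were Apobec2 (0.12), Gadd45g (0.15) and Slc1a3 (0.16). Apobec2 had only 3 to 7 reads per library.

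**Figure D4:**
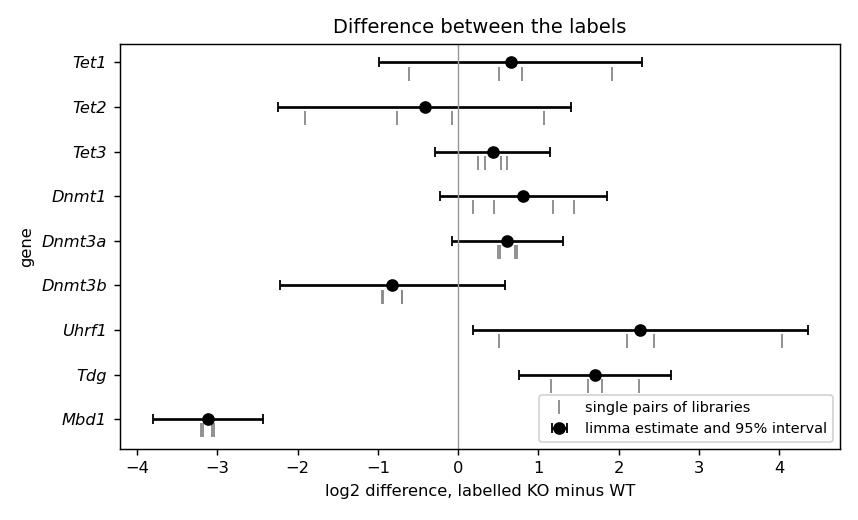
Log2 difference between the KO-labelled libraries and WT for each of the 9 genes, with the limma estimate and its 95% interval (black) and the 4 single pairs of libraries (grey ticks). The intervals of Uhrf1, Tdg and Mbd1 leave out 0, and the pairs of Mbd1 fall between -3.20 and -3.04.

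The Tet family was led by Tet3 in all 4 libraries. Per length, Tet3 was at 3.60 ± 0.396 FPKM (SD, n = 2) in WT, against 4.68 ± 0.500 (SD, n = 2) in the KO-labelled libraries, Tet2 at 1.55 ± 0.868 and 1.28 ± 1.07, and Tet1 at 0.618 ± 0.341 and 0.995 ± 0.692 (SD, n = 2 each). Tet1 was thus the lowest of the 3 in each library and lay above 46.4% of the listed genes by its mean over the libraries, but its order with Tet2 was not separated from the spread. Tet3 made up 52.3 and 74.7% of the summed Tet FPKM in WT, and 80.8 and 58.8% in the KO-labelled libraries. The sum itself was 6.34 and 5.19 FPKM in WT and 5.35 and 8.55 in the KO-labelled libraries, with overlap.

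Tet1 (ENSMUSG00000047146, chr10:62804570-62908996, minus strand) overlaps 2 genes annotated on its own strand. Its WT libraries differed 2.19-fold and those labelled KO 2.67-fold. The log2 difference was 0.66 (standard error 0.65, 95% interval -0.98 to 2.29, adjusted p = 0.691 from limma), and it became -0.051 without labelled KO replicate 2. Tet2 (ENSMUSG00000040943, chr3:133463679-133545139, minus strand) had 731 and 330 normalized counts in WT, against 195 and 693 in the KO-labelled libraries. The groups overlapped, and libraries of 1 label differed 2.21-fold in WT and 3.56-fold in the others. Its log2 difference of -0.42 (standard error 0.72, 95% interval -2.24 to 1.40, adjusted p = 0.831 from limma) turned to 0.15 without WT replicate 1 and to 0.50 without labelled KO replicate 1.

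Tet1 and Tet2 had the same order of libraries within each label, with WT replicate 1 above replicate 2 and labelled KO replicate 2 above replicate 1. The genes most like Tet1 were Qser1 (0.25), Ung (0.28) and Zbtb38 (0.36), and those most like Tet2 were Zbtb33 (0.29), Qser1 (0.32) and Zbtb38 (0.40). Qser1 encodes a protein that guards CpG-rich regions together with TET1.

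Tet3 (ENSMUSG00000034832, chr6:83362373-83459084, minus strand) was the steadiest of the family. It had 1108 and 1349 normalized counts in WT, against 1600 and 1696 in the KO-labelled libraries, higher in both without overlap. The means differed 1.34-fold, and the log2 difference of 0.43 (standard error 0.28, 95% interval -0.28 to 1.15) had an adjusted p of 0.554 from limma. It overlaps 3 annotated genes, 1 of them on the opposite strand, and Tet2 overlaps 1 antisense gene. The genes most like Tet3 were Parp1 (0.07), Setdb1 (0.10) and Bend3 (0.12).

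Tdg (ENSMUSG00000034674, chr10:82629828-82650799, plus strand), the glycosylase downstream of the Tet enzymes, was higher in both libraries labelled KO. It lies 19.7 Mb from Tet1 on the same chromosome and overlaps the protein-coding gene Glt8d2 on the opposite strand. It had 276 and 431 normalized counts in WT, against 962 and 1324 in the KO-labelled libraries. The gap between the labels was wider than that within either, with means of 354 ± 110 (SD, n = 2) and 1143 ± 256 (SD, n = 2) and a 3.23-fold difference. The log2 difference was 1.71 (standard error 0.38, 95% interval 0.76 to 2.65), with an adjusted p of 0.198 from limma, 0.209 from edgeR and 0.0154 from DESeq2. Leaving out 1 library gave 1.39 to 2.03, and without WT replicate 1 Tdg no longer passed an unadjusted p of 0.05. The genes most like Tdg were Tubb3 (0.15), a neuron marker, Mcm2 (0.24) and Cdca7 (0.25), and Mcm2 belongs to the S phase list.

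The wider pathway was described with a list of 50 further genes, 49 listed and 48 tested. At an unadjusted p under 0.05, 4 were higher (8.33%, against 4.54% of all genes tested) and 7 lower (14.6%, against 9.18%), with a median log2 difference of -0.055, against -0.07 over all genes. None passed an adjusted p under 0.05 in limma, and DESeq2 called 3 lower and 0 higher, against 3.63% and 1.29% of all genes. Leaving out 1 library changed how many of the 48 passed an unadjusted p under 0.05. The count over all genes tested changed in the same direction, so these shifts are not particular to the list.

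In the demethylation and base excision repair group, 1 of 17 genes tested was higher and 4 were lower at an unadjusted p under 0.05, against 4.54% and 9.18% of all genes tested. Neil2, a glycosylase that can take over after Tdg has acted, had the most negative difference of this group, with 172 and 122 normalized counts in WT, against 27.8 and 16.2 in the KO-labelled libraries (log2 difference -2.71, standard error 0.56, adjusted p = 0.186 from limma and 0.00136 from DESeq2). Apobec1, a cytidine deaminase best known for editing RNA, had 2346 and 2484 normalized counts in WT, against 693 and 889 in the KO-labelled libraries (log2 difference -1.62, standard error 0.29, adjusted p = 0.159 from limma and 0.00492 from DESeq2). Both genes, like Mbd4, kept the libraries of a label closer together than the labels.

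The Gadd45 genes, stress-induced factors linked to active demethylation, were all 3 lower without overlap, as were 25.4% of all genes tested, and Gadd45a and Gadd45g passed an unadjusted p of 0.05. Gadd45a had 1849 and 1415 normalized counts in WT, against 732 and 695 in the KO-labelled libraries, a log2 difference of -1.18 (standard error 0.30, adjusted p = 0.233 from limma). Gadd45g had 4227 and 4915 against 2909 and 1960, with a log2 difference of -0.93 (standard error 0.33, adjusted p = 0.33 from limma). Gadd45b had 1408 and 1732 against 1021 and 1070, and its interval from -1.30 to 0.14 included 0. Apex1, the endonuclease that follows the glycosylases, was higher, with 296 and 412 against 586 and 768 and a log2 difference of 0.94 (standard error 0.35, adjusted p = 0.355 from limma).

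Among genes of cofactor supply and TET partners, 1 of 10 was higher and 1 lower at an unadjusted p under 0.05, near the 4.54% and 9.18% of all genes tested. Idh1, which makes the alpha-ketoglutarate that TET enzymes consume, had 1218 and 1816 normalized counts in WT, against 3322 and 2463 in the KO-labelled libraries (log2 difference 0.94, standard error 0.34, adjusted p = 0.345 from limma). Ogt, the X-linked GlcNAc transferase that binds TET proteins, had 8055 and 5657 in WT and 2295 and 3972 in the KO-labelled libraries (log2 difference -1.16, standard error 0.39, adjusted p = 0.317 from limma). The genes most like Mbd1 over the 4 libraries were Dnmt3l (0.20), Neil2 (0.39) and the microglia marker Laptm5 (0.43). Dnmt3l had only 0 to 10 reads per library.

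**Figure D5:**
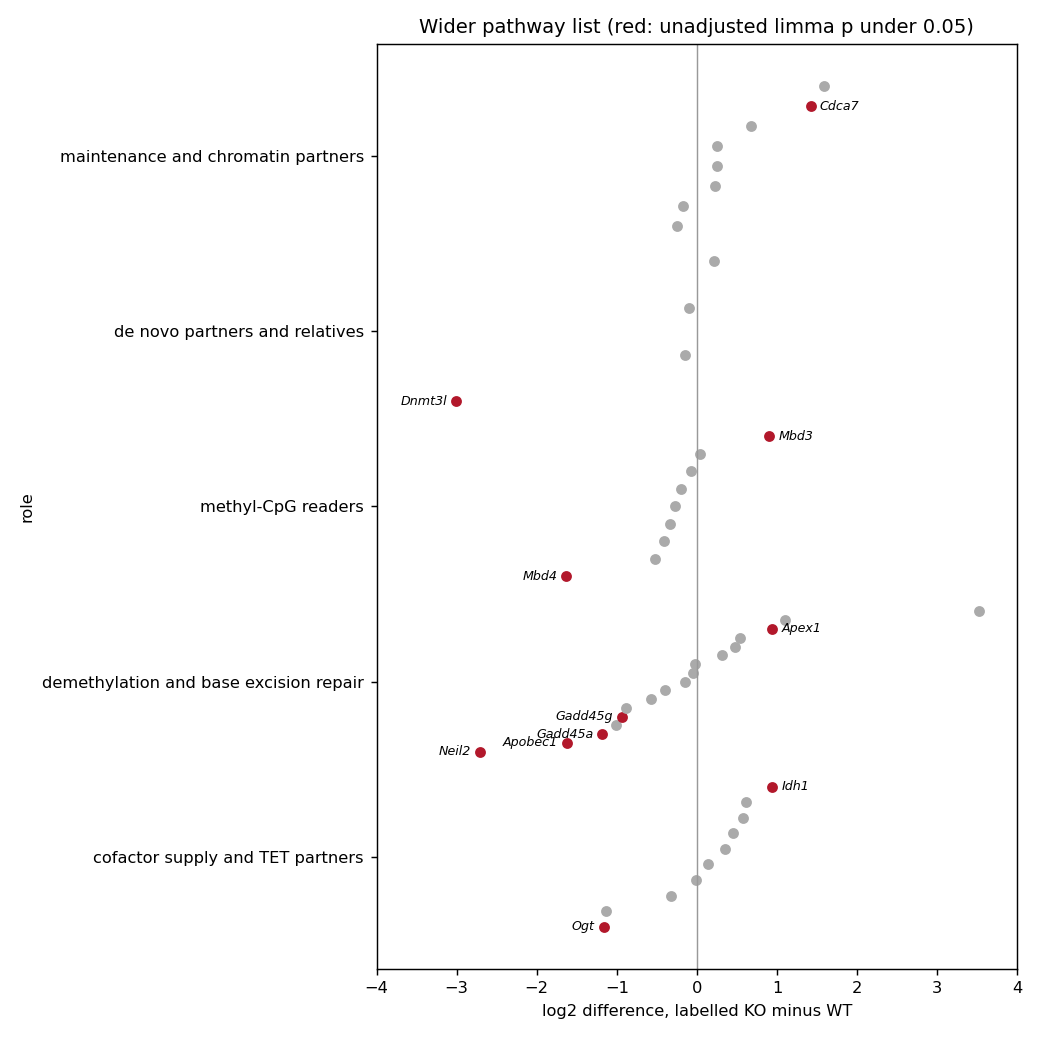
Log2 difference between the KO-labelled libraries and WT for the 48 tested genes of the wider list, by role, with genes at an unadjusted limma p under 0.05 in red and named. The red points are 4 above 0, with Cdca7 highest at 1.42, and 7 below 0, with Dnmt3l at -3.01 and Neil2 at -2.71 the lowest.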

How the data were processed

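RNA-seq of 4 libraries, 2 WT and 2 labelled Tet1 KO, was analysed, with groups and replicate numbers taken from the sample titles. Reads were paired-end Illumina reads, aligned by the authors to mm10. The aligner, counting program and annotation release are not given in the sources used here. The deposited table is named for FPKM, but its signal values are normalized counts, which the authors made by dividing the reads of a gene by the size factor of its library (0.934 to 1.11), with no length correction. Multiplying back gave whole numbers of reads, within 0.01, for 100% of the values. Group means and the test results of the authors (log2 fold change and p-values, also deposited) were not used.

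The main test was limma 3.58.1 (R 4.3.3, lmFit, eBayes with trend) on log2 of the normalized count with a pseudocount of 1, which compresses the change of low genes. It covered the 22094 genes whose mean was 1 or more, and p-values were adjusted by Benjamini-Hochberg. Recovered reads were also tested with edgeR 4.0.16 and DESeq2 1.42.0, which called 0 and 1088 genes, DESeq2 giving no adjusted p for 4712. FPKM was computed from recovered reads and the gene lengths in the table. Coordinates are those of the table and equal GENCODE M21 on GRCm38 for all 9 genes. Promoter windows came from RefSeq. Scripts were tested on simulated data. Replicates were compared by chi-square, with a median per gene of 6.48 in WT and 19.7 for the KO label (0.455 for sampling noise). Each library was counted, since the spread exceeded sampling noise. That spread does not show that the libraries came from separate cultures or animals. The members and lists were chosen with earlier results of these data known. The rule for named genes took all 9 members, their closest relatives, genes of the wider list at an unadjusted p under 0.05, the 3 S phase genes of highest FPKM, Gfap, abundant markers, sex-linked genes and, for each member, the 3 most similar genes. Snap25, P2ry12, Slc1a2, Sox9, Mbd5 and Mbd6 were named after their values were seen. Alternatives were pseudocounts of 0.1 and 5, no filter and a mean of at least 10, 3 other scalings, no variance trend, blocking on replicate number, each library left out, edgeR and DESeq2. 1 further gene that the rule names is not reported here. 5hmC sequencing was not analysed here.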

Additional observations from a re-analysis of the deposited data

How the results depend on the processing

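Of the 144 log2 differences of the 9 genes under alternatives, 138 kept their direction and their side of an adjusted p of 0.05. The 144 include the crossed replicate block described below, which was chosen after seeing the data. Much of the 138 was fixed by the settings themselves. Changes of filter, variance trend or block leave the log2 difference as it is. Settings that called 0 genes could move none past the threshold. With each library left out, Tet1 ranged from -0.051 (without labelled KO replicate 2) to 1.36, and Tet2 from -1.33 to 0.50 (without labelled KO replicate 1), with 0.15 without WT replicate 1. DESeq2 called Mbd1 (-3.12) and Tdg (1.69). The count of all genes at an adjusted p under 0.05 was 0 under the other planned settings and 1088 with DESeq2 (285 higher, 803 lower). With each library left out, the genes at an unadjusted p under 0.05 numbered 1135 to 4846, the members 1 to 3, the wider list 3 to 17 and the S phase list 0 to 9. Without a variance trend the wider list had 5 in place of 11, and the S phase list 7 in place of 11. The members had 2, while all genes at the same threshold numbered 2977, against 3032 in the main test. Quantile normalization moved the median log2 difference of all genes from -0.07 to 0.08 and the split of unadjusted calls from 1004 higher and 2028 lower to 1417 and 1490, and turned none of the 9 genes, though Dnmt3b went from -0.82 to -0.27. Where 1 library of a label remained, it was taken to vary like the other label.

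The replicate numbers are shared by name only. Deviations of same-numbered libraries had a correlation of -0.08 over all genes tested and -0.11 over those with a mean of at least 50. With a replicate block the wider list had 7 genes at an unadjusted p under 0.05, in place of 11, the members 3 and all genes 2583. A crossed replicate block, chosen after seeing the data, called 244 genes at an adjusted p under 0.05, in place of 0, among them Mbd1 (0.0128). The causes of these shifts were not tested. About 26 to 50 reads on Dnmt3b and 10 or fewer on Dnmt3l limit what can be said of them.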
